A study of Homo sapiens with 12 samples.

Results

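CD44 (ENSG00000026508.12) is a cell surface glycoprotein that binds the matrix polymer hyaluronan, and it is described here through its gene count and through all of its splicing events. The deposited event files hold 66 events of CD44 among 56092 events in all, and CD44 is 1 of 57820 gene IDs in the gene counts. The data are poly(A) RNA sequencing of AsPC-1, an established human pancreatic cancer cell line, in 12 libraries. The 4 groups of 3 replicates (A, B and C) are siControl, a scrambled siRNA, at 21% O2 (normoxia siControl); siARNT, RNA interference against ARNT (the siRNA sequences are not given in the sources used here), at 21% O2 (normoxia siARNT); siControl at 1% O2 for 24 h (hypoxia siControl); and siARNT at 1% O2 for 24 h (hypoxia siARNT). All 12 were transfected and harvested 48 h later, after each culture had been divided between the oxygen levels, so no group is without a transfection. The study asks which isoforms depend on HIF, the hypoxia-inducible transcription factor whose constant subunit ARNT encodes.

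The CD44 transcript is known for a block of variable exons in the part that codes for the extracellular stem. Constant exons flank the block, and an mRNA in which the last constant exon before it (c5) is joined directly to the first after it (c16) encodes the standard form, CD44s. An mRNA that keeps any of the variable exons v2 to v10 encodes a variant form, CD44v. Epithelial cells are known to make variant forms with the help of the splicing factors ESRP1 and ESRP2, and loss of those factors is known to shift CD44 toward the standard form.

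Exons were named by setting the exons of the event files beside a GENCODE 29 transcript of CD44 with 18 exons that carries v2 to v10. In 16 of the 18 exons the length and the spacing to the other exons were the same, while 0 lay at the same position. The event coordinates are therefore printed as deposited, on chromosome 11 in a build that the sources used here do not name. In these coordinates c5 runs from 35211382 to 35211612, v3 from 35219668 to 35219793, v6 from 35226059 to 35226187, v7 from 35227659 to 35227790, v8 from 35229652 to 35229753, v9 from 35231512 to 35231601, v10 from 35232793 to 35232996 and c16 from 35236399 to 35236461. Each of v2 to v10 has a length divisible by 3, from 90 bases in v9 to 204 in v10, so that any of them can be left out without a shift of the reading frame.

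The sequences that tell the main routes out of c5 apart are the joins themselves, read from the GENCODE 29 transcript in the sense direction. The 20 bases in lower case are the end of c5, the same in each line, and the 20 capitals are the start of the next exon.
c5 to c16: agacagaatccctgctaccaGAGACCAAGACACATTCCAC
c5 to v3: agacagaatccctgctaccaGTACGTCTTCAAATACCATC
c5 to v6: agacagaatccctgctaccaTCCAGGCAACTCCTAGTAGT
c5 to v8: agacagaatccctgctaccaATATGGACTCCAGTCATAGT
c5 to v10: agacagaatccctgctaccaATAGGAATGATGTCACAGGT

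The library totals ran from 38.53 to 84.34 M reads in genes. ARNT itself fell from 62.4 ± 1.53 to 13.4 ± 0.56 CPM (gene counts scaled to library size by TMM) in normoxia and from 69.1 ± 3.81 to 15.3 ± 1.04 CPM in hypoxia (SD, n = 3), which matches the siRNA labels of all 12 libraries. The 8 markers of an epithelial ductal cancer line were all expressed (KRT8 at 1180 CPM or more, EPCAM at 794 or more), whereas CDH5 of endothelium and the leukocyte genes CD3E, PTPRC and CD14 were at or near 0 (at most 0.706 CPM). Of the 6 mesenchymal markers only VIM was above 0.586 CPM, and the sum of that list was 1480 to 1600 CPM in normoxia siControl and 2020 to 2320 CPM over the other 3 groups. The sum of the epithelial list was 6400 to 6950 CPM in normoxia siControl and 7130 to 10000 CPM in normoxia siARNT, and 6380 to 7240 and 5940 to 7190 CPM in hypoxia. The part of either in the CD44 values was not tested. Replicate B of normoxia siARNT stood apart from A and C over all genes (chi-square over its degrees of freedom 79.5 and 65.09, against 3.95 between A and C), and A and C of hypoxia siARNT differed by 54.64. CD44 values without these libraries are given beside the results they touch.

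CD44 RNA was abundant in every library and rose with siARNT in hypoxia. In replicates A, B and C it stood at 410.5, 392.7 and 417.3 CPM in normoxia siControl and at 407.9, 362.7 and 414.4 CPM in hypoxia siControl. It stood at 469.4, 432.9 and 477.6 CPM in normoxia siARNT and at 536.7, 493.7 and 460.6 CPM in hypoxia siARNT. At either oxygen level every siARNT library lay above every siControl library, and the 2 oxygen levels overlapped within each siRNA. From low to high the means were those of hypoxia siControl (395 ± 28.1 CPM), normoxia siControl (407 ± 12.7), normoxia siARNT (460 ± 23.8) and hypoxia siARNT (497 ± 38.1; SD, n = 3 in each), and no 2 neighbours in that order differed by the test.

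By edgeR's quasi-likelihood test with Benjamini-Hochberg adjustment over 16999 genes, CD44 rose with siARNT in hypoxia by a log2 fold change of 0.33 (SE 0.073, 95% interval 0.17 to 0.49, adjusted p 0.00483). In that comparison 29.1% of genes were called at an adjusted p under 0.05, and the libraries of the 2 groups did not overlap in 40.3% of genes. With siARNT in normoxia the log2 fold change was 0.18 (95% interval 0.02 to 0.34, adjusted p 0.0969, edgeR, 20.2% of genes called, and no overlap in 46.5%). That comparison passed the threshold only when libraries were scaled by their totals (0.21, adjusted p 0.0267). Hypoxia gave a log2 fold change of -0.04 in siControl (adjusted p 0.718, 25.3% of genes called) and 0.11 in siARNT (adjusted p 0.408, 4.09% called). The interaction, how much more hypoxia changed CD44 under siARNT, was 0.15 (adjusted p 0.406, edgeR, 4.69% called, 2.49% of genes higher and 2.19% lower). Without normoxia siARNT replicate B the log2 fold change for siARNT in normoxia was 0.21 (adjusted p 0.111, edgeR). For siARNT in hypoxia it was 0.27 (adjusted p 0.0277, edgeR) without hypoxia siARNT replicate A and 0.38 (adjusted p 0.0029, edgeR) without replicate C. The oxygen levels did not overlap in 46.8% of genes under siControl and in 22.2% under siARNT. The labels describe wells seeded in triplicate but not whether a letter marks the same well across groups, and the p-values measure only the spread between these samples, which may be technical.

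Reads over the joins at c5 give the level of the standard and the variant forms apart. Reads from c5 to c16, the standard join, came to 11.9, 12.5 and 12.4 RPM (junction reads on the same scale as CPM) in normoxia siControl and 13.5, 15.1 and 14.7 in normoxia siARNT. They came to 12.2, 11.4 and 12.7 RPM in hypoxia siControl and 15.1, 15.4 and 15.6 in hypoxia siARNT, so that siARNT was higher in every library at both oxygen levels. Reads from c5 to any variant exon came to 7.03, 6.58 and 7.96 RPM in normoxia siControl and 8.98, 7.94 and 8.59 in normoxia siARNT, where 1 siARNT library fell within the siControl range. In hypoxia they came to 7.63, 6.62 and 8.01 RPM with siControl and 9.69, 8.34 and 9.69 with siARNT, without overlap. Joins from c5 to c16 and from c5 to a variant exon were thus both higher with siARNT in hypoxia, as the gene count was. These levels were not tested, and joins from variant exons into c16 were not put on this scale. For comparison, the groups did not overlap in 46.5% of genes for siARNT in normoxia and in 40.3% in hypoxia.

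**Figure D1:**
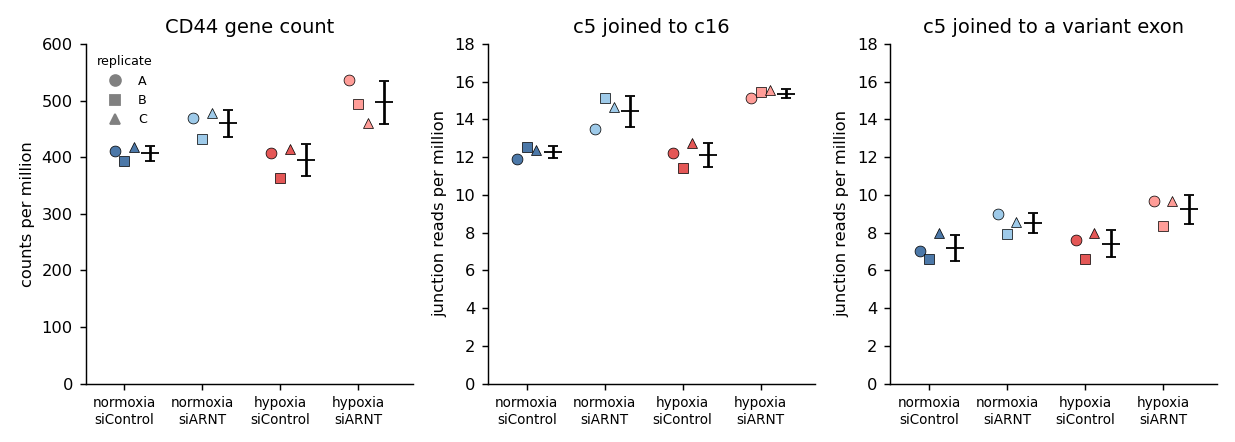
CD44 gene count (left, CPM), reads joining c5 to c16 (middle) and reads joining c5 to a variant exon (right, both in RPM) in the 12 libraries. Symbols are replicates and bars are the mean and SD of 3 libraries; the siARNT libraries reach 536.7 CPM in hypoxia, and the c5 to c16 reads of all 6 siARNT libraries lie above those of all 6 siControl libraries.

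The standard form was the main form, with most of the reads that left c5 in every group. Of the reads from the end of c5 to c16 or a variant exon, 62.5% went to c16 over the 12 libraries (8941 reads). Left out were 186 reads from c5 to c17 and the joins from a donor inside c5, of which 332 reads went to c16. Entry at v8 took 16.6%, at v3 7.32%, at v10 7.08% and at v6 5.46%. Entry at v2 took 0.51% and entry at v4, v5, v7 or v9 took at most 0.272% each. In normoxia the share that went to a variant exon was 37.1, 34.4 and 39.1% with siControl and 39.9, 34.4 and 37.0% with siARNT. In hypoxia it was 38.5, 36.7 and 38.6% with siControl and 39.1, 35.1 and 38.4% with siARNT. The 4 ranges overlapped, and replicate B was the lowest library of each group. The share counts joins from c5 to a second acceptor 18 bases inside v10. That join was at 0 reads in 3 libraries and at 7 to 25 in all others, and the share without it was not tested.

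The variant share differed by 1.04 percentage points for hypoxia in siControl (exact two-sided permutation test, p = 0.7), 0.41 for hypoxia in siARNT (p = 0.9), 0.22 for siARNT in normoxia (p = 1) and -0.41 for siARNT in hypoxia (p = 0.8). Each adjusted p over the 4 comparisons was 1, and 3 libraries against 3 cannot give less than 0.1 in an exact permutation test. Measured at the other end of the block, as the share of reads entering c16 from a variant exon, the means were 42.4 ± 0.742, 41.4 ± 2.78, 41.2 ± 0.707 and 39.8 ± 5.08% (SD, n = 3), the normoxia groups first and siControl before siARNT. At c16 the differences were -1.18 points for hypoxia in siControl (exact permutation test, p = 0.2), -1.63 for hypoxia in siARNT (p = 0.7), -0.92 for siARNT in normoxia (p = 0.6) and -1.37 for siARNT in hypoxia (p = 0.7; adjusted p 0.7 in each). The first of these was larger than the SDs of its groups. In 3 of the 4 comparisons the sign at c16 was the opposite of that at c5, so no direction is given.

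**Figure D2:**
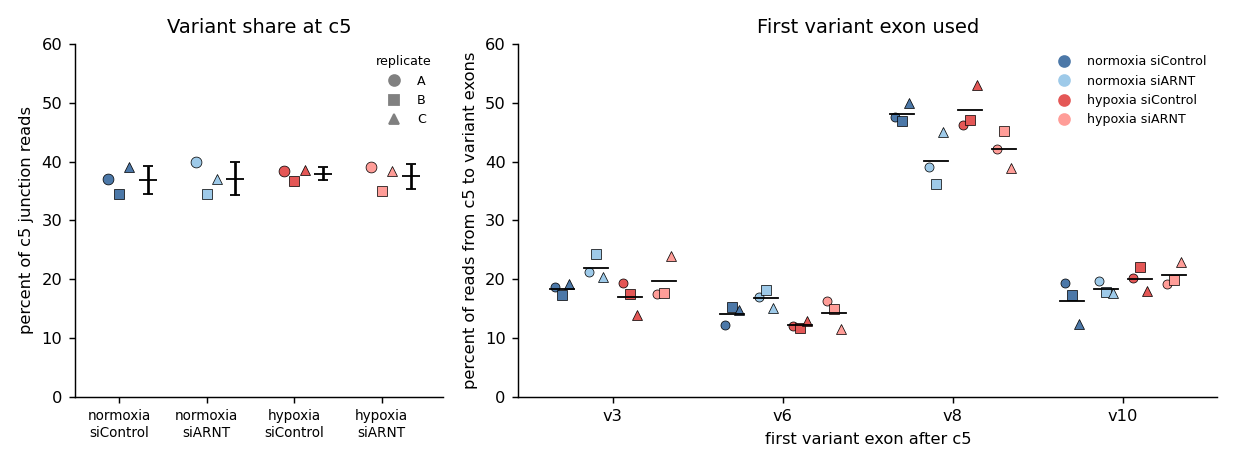
Left, percent of reads from the end of c5 to c16 or a variant exon that go to a variant exon, by library. Bars are the mean and SD of 3 libraries. Right, percent of those variant reads that enter at v3, v6, v8 or v10, with a line at each mean; the variant share lies between 34.4 and 39.9% in all libraries, and v8 is the most used entry in each of them.

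An event compares the reads of an inclusion form with those of a skipping form. The tested event that sets the main exit of the block against the standard join was v10 between c5 and c16. Its inclusion form averages the v10 to c16 joins (5276 reads over the 12 libraries) with the c5 to v10 joins (862 reads). It thus mixes the main exit with a minor entry. Percent spliced in (PSI), the deposited share of the inclusion form, was 0.26, 0.25 and 0.25 with siControl and 0.28, 0.23 and 0.25 with siARNT in normoxia. In hypoxia it was 0.26, 0.26 and 0.25 with siControl and 0.28, 0.25 and 0.22 with siARNT. The change in the log2 ratio of inclusion to skipping was 0.01 for hypoxia in siControl (95% interval -0.29 to 0.31) and -0.02 for hypoxia in siARNT (-0.3 to 0.25). It was 0.03 for siARNT in normoxia (-0.24 to 0.31) and 0 for siARNT in hypoxia (-0.32 to 0.31; adjusted p 1 in all 4, edgeR). The 4 ranges of PSI overlapped, and the intervals do not reach beyond 0.32 in either direction.

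The variant exons were used unequally, with v8, v9 and v10 as a chain. Mean read coverage of v10, as a percent of that of c16, was 28 ± 1.17 with siControl and 26 ± 2.05 with siARNT in normoxia, and 26.3 ± 1.58 and 26.7 ± 0.823 in hypoxia (SD, n = 3). In normoxia siControl v8 stood at 26.5 ± 3.01 and v9 at 26.8 ± 0.82, against 7 ± 1.1 for v6, 5.67 ± 0.784 for v3, 4.69 ± 0.284 for v7, 3.16 ± 0.543 for v5 and 2.54 ± 0.668 for v4. Of the reads that left v8, 95.8 ± 0.9% went on to v9 in that group, and of those that left v9, 92.3 ± 1.25% went on to v10. Reads that left the block came from v10 in 81.1 ± 0.72 to 84.6 ± 1.91% (the lowest and highest group mean). The exit next in use was v3, from which 43.4 ± 3.68% of reads in normoxia siControl went straight to c16, 42.8 ± 3.89% to v8 and 13.7 ± 4.69% to v4.

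**Figure D3:**
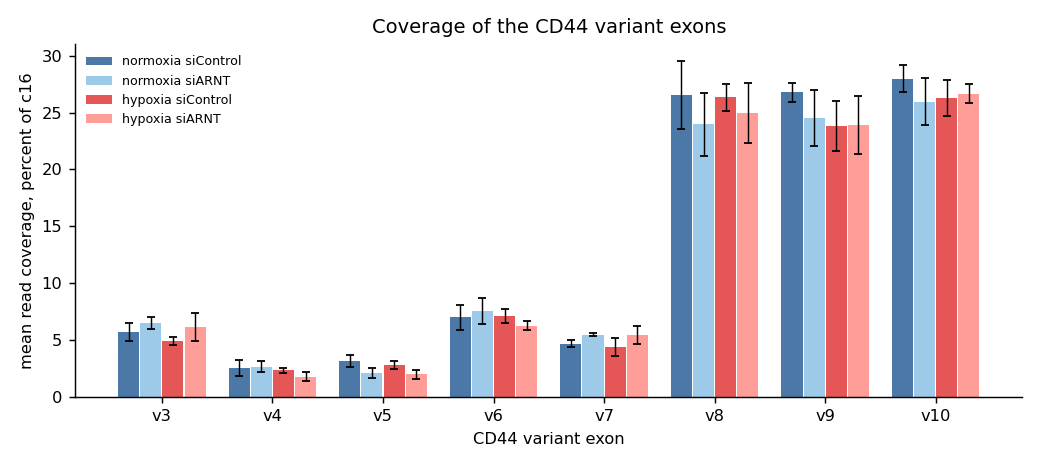
Mean read coverage of the variant exons v3 to v10 as a percent of the coverage of the constant exon c16; bars are means of 3 libraries per group and whiskers are SDs. In all 4 groups v8, v9 and v10 stand highest (v10 between 26 and 28% of c16), and v6 reaches at most 7.56% as a group mean.

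Across all CD44 events other than intron retention, none was called in any comparison. Of 63 such events 55 had enough reads to be tested, and edgeR's quasi-likelihood test called 0 of 55 for hypoxia in siControl (0.0448% of 42409 events called in all), 0 for hypoxia in siARNT (0% in all), 0 for siARNT in normoxia (0.137%), 0 for siARNT in hypoxia (0.0566%) and 0 for the interaction (0%). The limma test on PSI also called 0 of CD44 in each. With the replicate letter as a block 364, 214, 459, 255 and 26 events were called in all, in the same order, and 0 of CD44. At an unadjusted p under 0.05 there were 8, 2, 10, 4 and 2 CD44 events in the same order, or 14.5, 3.64, 18.2, 7.27 and 3.64% of the 55, beside 5.44, 4.32, 7.6, 5.9 and 4.12% of all events. CD44 events share junctions and so are not independent of each other. The skip of the constant exon c4 is among those for hypoxia in siARNT, siARNT in normoxia and the interaction. Its ratio rests on a join at 0 reads in 5 libraries. The lowest adjusted p of CD44 was 0.366, for v3 with siARNT in normoxia.

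**Figure D4:**
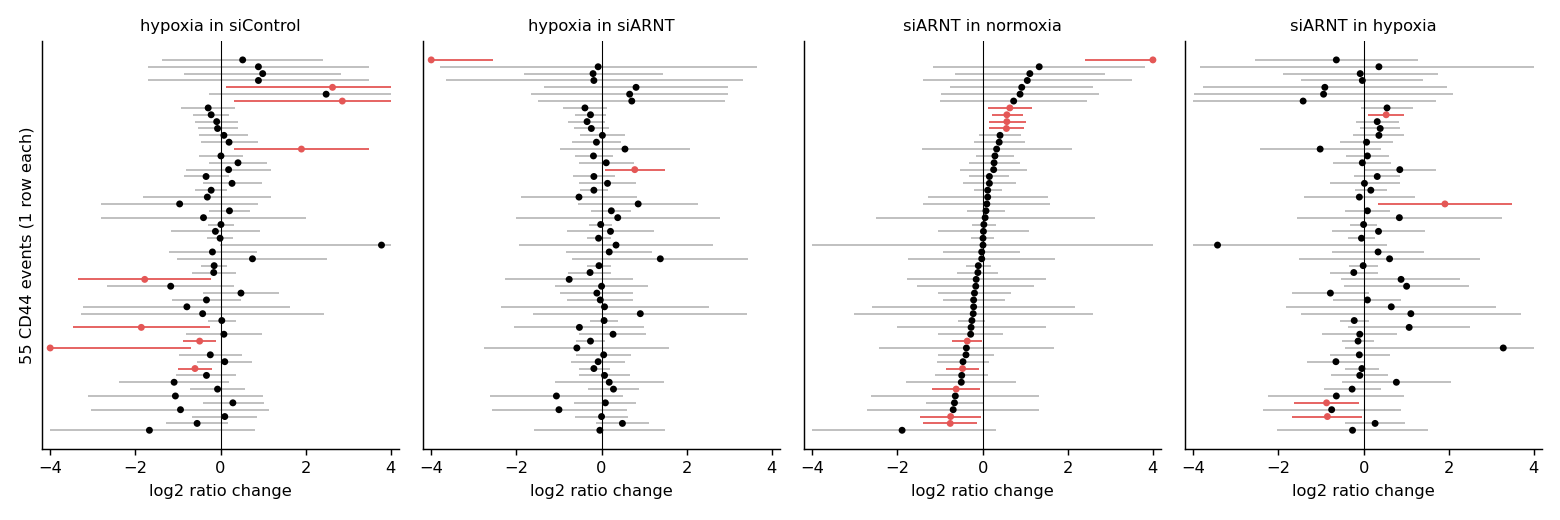
Change in the log2 ratio of inclusion to exclusion for the 55 tested CD44 events, 1 row per event in the same order in each panel, with 95% intervals; values beyond 4 are drawn at 4, and red marks an unadjusted p under 0.05. Red rows number 8, 2, 10 and 4 from left to right, and none passed the adjusted threshold. They include the skip of c4 for hypoxia in siARNT and for siARNT in normoxia.

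Several events with an unadjusted p under 0.05 concern which variant exon is entered first, and none passed the adjusted test. In the event that sets v3 against direct entry at v8, PSI was 0.21, 0.21 and 0.22 in normoxia siControl and 0.27, 0.33 and 0.27 in normoxia siARNT. In hypoxia it was 0.21, 0.2 and 0.15 with siControl and 0.25, 0.25 and 0.25 with siARNT, so the groups did not overlap at either oxygen level. Groups did not overlap in PSI in 9.25% of all events with values for siARNT in normoxia and in 8.11% for siARNT in hypoxia, and in 7 of 54 and 8 of 54 CD44 events. The change in log2 ratio was 0.57 in normoxia (95% interval 0.21 to 0.94, adjusted p 0.366, edgeR) and 0.53 in hypoxia (0.11 to 0.94, adjusted p 0.769, edgeR). The rule for naming took all events, and this one was singled out after its values were seen. Without normoxia siARNT replicate B, its highest library, the change in normoxia was 0.45 (adjusted p 0.71, edgeR).

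The event that sets v6 against direct entry at v8 had PSI values of 0.12, 0.14 and 0.13 in normoxia siControl and 0.18, 0.21 and 0.15 in normoxia siARNT. In hypoxia they were 0.12, 0.13 and 0.11 with siControl and 0.17, 0.15 and 0.15 with siARNT, again without overlap. The inclusion form averages the c5 to v6 joins (781 reads over the 12 libraries) with the v6 to v8 joins (47 reads). The PSI thus mainly sets entry at v6 against entry at v8, and is not the share of a form with v6 joined to v8. As given above, groups did not overlap in 9.25% of all events for siARNT in normoxia and in 8.11% in hypoxia. The log2 ratio change was 0.56 in normoxia (0.14 to 0.98, adjusted p 0.5, edgeR) and 0.39 in hypoxia (-0.08 to 0.85, adjusted p 0.88, edgeR). Without normoxia siARNT replicate B the former was 0.46 (adjusted p 0.8, edgeR). Both events use the c5 to v8 reads as their skipping form, so they are not 2 separate observations. In the event that sets v3 against the c5 to c16 join, the change with siARNT was 0.12 in normoxia (adjusted p 0.907, edgeR). In hypoxia it was 0.17 (adjusted p 0.933, edgeR). For v6 against the c5 to c16 join it was 0.29 in normoxia (adjusted p 0.81, edgeR) and 0.09 in hypoxia (adjusted p 0.998, edgeR). For v5 between c5 and v6 the log2 ratio change was -0.75 in normoxia (-1.47 to -0.04, adjusted p 0.643, edgeR) and -0.85 in hypoxia (-1.67 to -0.03, adjusted p 0.841, edgeR). The c5 to v5 join was counted at 0 reads in 11 libraries and at 9 in hypoxia siARNT replicate A. Whether those zeros are true absences was not tested. As counted, the v5 event rests mainly on the v5 to v6 joins, 13 to 42 reads a library, against direct entry at v6.

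As shares of all variant entries, v8 took 47.6, 46.8 and 49.9% in normoxia siControl and 39.1, 36.2 and 45.0% in normoxia siARNT. In hypoxia v8 took 46.3, 47.1 and 53.1% with siControl and 42.1, 45.2 and 38.9% with siARNT, so every siARNT library was below every siControl library at the same oxygen level. As levels, the c5 to v8 reads were 3.47 ± 0.457 RPM in normoxia siControl and 3.42 ± 0.501 in normoxia siARNT, and 3.63 ± 0.574 and 3.88 ± 0.179 in hypoxia. The c5 to v3 reads were 1.33 ± 0.193 and 1.86 ± 0.0996 RPM in normoxia, and 1.25 ± 0.198 and 1.83 ± 0.433 in hypoxia (siControl, then siARNT; SD, n = 3). These shares and levels were not tested apart from the events. The v8 share uses the c5 to v3, v6 and v8 reads of the v3 and v6 events and is not a further observation. Over all events, groups did not overlap in PSI in 9.25% for siARNT in normoxia and in 8.11% in hypoxia.

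At the far end of the block, v9 between c5 and v10 had PSI values of 0.77, 0.77 and 0.79 in normoxia siControl and 0.69, 0.64 and 0.74 in hypoxia siControl. With siARNT they were 0.71, 0.75 and 0.69 in normoxia and 0.7, 0.67 and 0.69 in hypoxia, so that normoxia siControl was the highest group and the other 3 overlapped. The inclusion form of this event averages the c5 to v9 joins (39 reads over the 12 libraries) with the v9 to v10 joins (4395 reads). Its PSI thus mainly sets v9 to v10 joins against direct entry at v10, and a route from c5 straight to v9 was rare. Normoxia and hypoxia siControl did not overlap in 6 of 55 CD44 events, or 10.9%, beside 7.83% of all events. The log2 ratio change was -0.6 for hypoxia in siControl (-1.01 to -0.19, adjusted p 0.798, edgeR) and -0.47 for siARNT in normoxia (-0.85 to -0.09, adjusted p 0.552, edgeR). For v7 between v6 and v8, PSI was 0.95, 1 and 0.95 in normoxia siControl and 0.91, 0.81 and 0.91 in hypoxia siControl, with only 0 to 9 skipping reads per library (log2 ratio change -1.78, -3.34 to -0.22, adjusted p 0.907, edgeR).

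**Figure D5:**
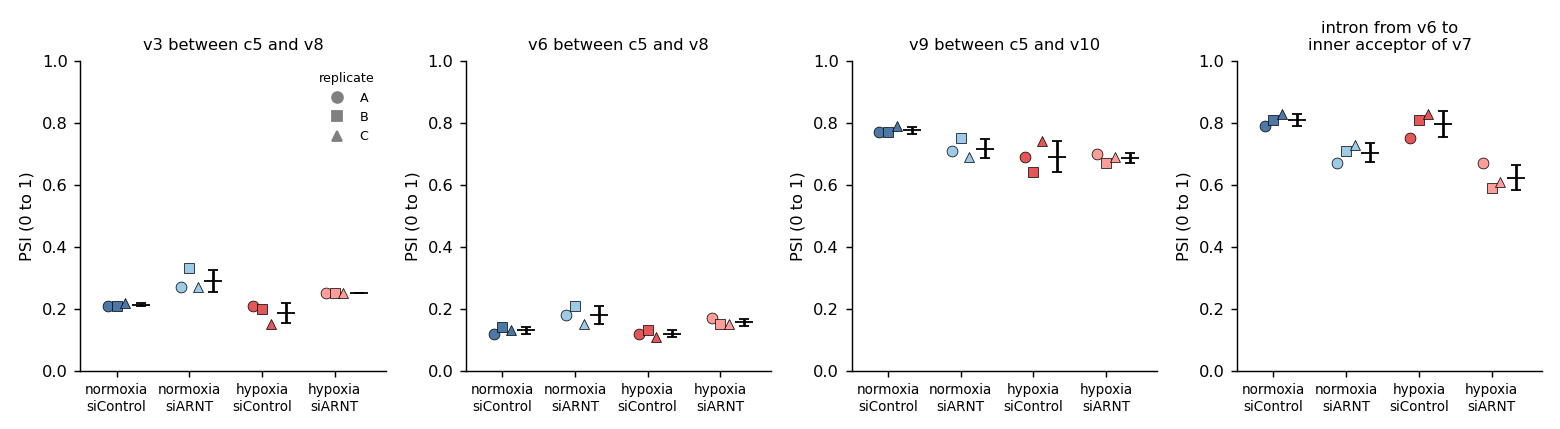
Deposited PSI (0 to 1) by library for v3 and v6 against direct entry at v8, for v9 between c5 and v10, and for the intron from v6 to the inner acceptor of v7; symbols are replicates, bars the mean and SD of 3 libraries. The intron event runs from 0.79 to 0.83 in normoxia siControl and from 0.59 to 0.67 in hypoxia siARNT.

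All 3 intron retention events of CD44 passed the count limit, and 1 of them was called in 1 comparison. They concern the intron between v6 and v7 and differ in the acceptor with which the spliced form is counted. The exon v7 can start at 2 sites 3 bases apart, and the inner site leaves out the bases given in capitals here.
v7: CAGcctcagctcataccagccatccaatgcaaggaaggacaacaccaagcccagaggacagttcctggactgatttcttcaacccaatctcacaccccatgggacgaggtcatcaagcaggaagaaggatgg

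In the event counted with the inner site, PSI for the retained intron was 0.79, 0.81 and 0.83 with siControl and 0.67, 0.71 and 0.73 with siARNT in normoxia. In hypoxia it was 0.75, 0.81 and 0.83 with siControl and 0.67, 0.59 and 0.61 with siARNT. The siARNT libraries were the lower ones at both oxygen levels, with no overlap, as in 12.9% of all retention events with values in normoxia and 11.1% in hypoxia. By limma on the logit of PSI the change was -1.26 for siARNT in hypoxia (95% interval -1.74 to -0.78, adjusted p 0.0407, 0.774% of 4391 retention events called) and -0.85 for siARNT in normoxia (-1.33 to -0.37, adjusted p 0.167, limma, 0.114% called). None of the 3 was called for hypoxia in siControl (0.342% of retention events called), hypoxia in siARNT (0.0683%) or the interaction (0.0228%). At an unadjusted p under 0.05 there was 1 CD44 event for hypoxia in siControl, 1 for hypoxia in siARNT, 1 for siARNT in normoxia, 2 for siARNT in hypoxia and 1 for the interaction, beside 9.5, 7.61, 10.6, 11 and 6.51% of all retention events.

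The call rests on few reads and was lost in 12 of 16 alternatives. The reads from v6 to the inner site numbered 8, 3 and 4 in hypoxia siControl and 10, 13 and 10 in hypoxia siARNT, while the mean coverage of the intron was 24, 12.7 and 19.1 against 20.1, 18.9 and 15.6. With only the 6 libraries compared the adjusted p was 0.239 (limma), and leaving out 1 of the 12 libraries gave values up to 0.131 (without hypoxia siControl replicate B), and 10 of these 12 fits lost the call. The fit without normoxia siARNT replicate B was among them. For the event of the same intron counted with the main acceptor, PSI in hypoxia was 0.387 ± 0.11 with siControl and 0.333 ± 0.015 with siARNT (SD, n = 3; adjusted p 0.778, limma). The event counted with an acceptor that lies before v7 had the opposite sign, with means of 0.783 ± 0.049 and 0.907 ± 0.035 (logit change 1.47, adjusted p 0.301, limma). The choice between the 2 sites, tested as an event of its own, gave an inner share of 15.4, 9.09 and 18.2% in hypoxia siControl and 18.9, 25 and 25.6% in hypoxia siARNT (log2 ratio change 0.85, 0 to 1.7, adjusted p 0.872, edgeR).

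Other paired splice sites were used unequally. From v4, the outer acceptor of v5, 3 bases before the exon, had a mean PSI of 0.41 ± 0.15 with siControl and 0.467 ± 0.081 with siARNT in normoxia, and 0.513 ± 0.38 and 0.66 ± 0.14 in hypoxia, on 1 to 22 reads a library. From c5, the inner acceptor of v3, 27 bases inside the exon, took 15.6 ± 6.47% of v3 entries with siControl and 15 ± 1.42% with siARNT in normoxia, and 22.5 ± 1.9 and 13.7 ± 6.48% in hypoxia. From v9, the inner acceptor of v10, 18 bases inside, took 1.47 ± 0.225% with siControl in normoxia and 1.94 ± 1.75% in hypoxia. From c5 the main acceptor of v10 had a mean PSI of 0.877 ± 0.12 and 0.863 ± 0.12 in normoxia, and 0.813 ± 0.031 and 0.893 ± 0.13 in hypoxia (siControl, then siARNT), and the inner acceptor took the rest. The inner join was at 0 reads in replicate C of normoxia siControl and of normoxia siARNT, and in replicate B of hypoxia siARNT. It was at 7 to 25 reads elsewhere, so the means of those groups are raised by the zeros. An inner donor of c5, 93 bases before its end, made 3.13 ± 0.858% of the joins to c16 in normoxia siControl and 4 ± 0.505% in normoxia siARNT (SD, n = 3). The distances of 27, 18 and 93 bases keep the reading frame.

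The constant exons were nearly always included. PSI of c17, the exon that codes next after c16, was 0.99 to 1 in all 12 libraries. In normoxia, skipping of c4 was counted at 17, 0 and 28 reads with siControl and 0, 0 and 0 with siARNT. In hypoxia it was counted at 15, 0 and 11 reads with siControl and 16, 12 and 15 with siARNT. The join was thus at 0 in 5 libraries and at 11 or more in all others. The join from c5 to the inner acceptor of v10 was likewise at 0 in 3 libraries and at 7 or more elsewhere. The fitted ratio of c4 rests on those zeros and is not given. Skipping of c18 was counted at 13 to 79 reads a library, beside 970 to 2327 reads from c18 to the last exon. Joins that would skip from c2 into c18 were rare, with 53 reads over the 12 libraries to each of 2 acceptors.

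Genes that make, bind or act with hyaluronan and CD44 were counted from a list of 29, of which 23 were expressed enough to be tested. With siARNT in hypoxia 5 of the 23 rose and 8 fell (median log2 fold change -0.13, beside 0.02 over all genes), and with siARNT in normoxia 4 rose and 7 fell (median -0.13, beside 0.01). With hypoxia in siControl 3 rose and 6 fell (median 0, beside 0.02), and with hypoxia in siARNT 0 rose and 2 fell (median -0.12, beside -0.04). Over all genes 14.4% rose and 14.7% fell with siARNT in hypoxia, 9.42% and 10.8% with siARNT in normoxia, 10.4% and 14.9% with hypoxia in siControl, and 2.21% and 1.89% with hypoxia in siARNT. With libraries scaled by their totals the counts for siARNT in hypoxia were 6 and 6. For siARNT in normoxia they were 2 and 4 without normoxia siControl replicate A or C. For hypoxia in siARNT 0 fell without hypoxia siARNT replicate A or B, and 1 fell without replicate C of hypoxia siARNT or normoxia siControl, or without normoxia siARNT replicate A or C.

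HAS3, a hyaluronan synthase, had 66.2 ± 2.54 CPM with siControl and 36.5 ± 2.53 with siARNT in normoxia, and 106 ± 1.94 and 28.6 ± 2.05 CPM in hypoxia (SD, n = 3). It rose with hypoxia in siControl (log2 fold change 0.68, adjusted p 3.25e-05, edgeR), and its interaction was -1.03 (adjusted p 0.000161, edgeR). HAS2, another hyaluronan synthase, stood at 88.7 ± 7.07, 67.4 ± 6.72, 115 ± 2.58 and 62 ± 7.67 CPM in the same order and fell with siARNT in hypoxia by 0.89 on the log2 scale (adjusted p 4.11e-05, edgeR). VCAN, the hyaluronan-binding proteoglycan versican, stood at 4950 ± 275, 2830 ± 157, 7170 ± 680 and 3340 ± 438 CPM and fell with siARNT in hypoxia by 1.1 (adjusted p 8.17e-06, edgeR). HAS2, HAS3 and VCAN all rose with hypoxia in siControl and fell with siARNT at both oxygen levels.

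Of the linkers between CD44 and the actin cortex, moesin (MSN) stood at 259 ± 4.79, 393 ± 31.3, 217 ± 7.3 and 348 ± 3.7 CPM and rose with siARNT in hypoxia (0.68, adjusted p 7.67e-06, edgeR). Radixin (RDX) rose (0.47, adjusted p 0.00276) and ezrin (EZR) fell (-0.36, adjusted p 0.00107) in the same comparison. NF2, the merlin gene, a related protein that binds the CD44 tail, rose by 0.77 (adjusted p 0.000311, edgeR). The proteases ADAM10 and ADAM17, which can shed CD44, had log2 fold changes of 0.09 and 0.11 (adjusted p 0.482 and 0.36, edgeR). The cystine transporter subunit SLC7A11, which variant CD44 is known to stabilise, fell with hypoxia in siControl (-0.42, adjusted p 0.0114) and in siARNT (-0.51, adjusted p 0.0241, a call lost in 8 of 19 alternatives).

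All 30 genes of a list of published regulators of the CD44 variable exons were tested. In hypoxia 5 rose and 5 fell with siARNT, beside 14.4 and 14.7% of all genes, in normoxia 3 rose and 4 fell, beside 9.42 and 10.8%, and in neither was the median log2 fold change far from 0 (0.02 and 0, beside 0.02 and 0.01 over all genes). With hypoxia 3 rose and 6 fell in siControl (median -0.08, beside 0.02; 10.4 and 14.9% of all genes), and 1 rose and 2 fell in siARNT (median -0.06, beside -0.04; 2.21 and 1.89% of all genes). These counts moved with single libraries. For hypoxia in siControl they were 1 and 2 without hypoxia siControl replicate A, 1 and 4 without B and 2 and 2 without C, and 2 and 2, 1 and 3, and 1 and 3 without normoxia siControl A, B and C. With siARNT they were 3 and 3 in hypoxia without hypoxia siARNT replicate B, and 1 and 3 in normoxia without normoxia siControl replicate A. For hypoxia in siARNT 10 of the 12 fits without 1 library gave 0 or 1 rising and 1 falling. With libraries scaled by their totals, the counts became 10 and 4 for siARNT in hypoxia and 1 and 11 for hypoxia in siControl.

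ESRP1, which promotes the variant exons in epithelial cells, had 20.5 ± 1.58 CPM with siControl and 14.2 ± 1.12 with siARNT in normoxia, and 23 ± 0.908 and 12.2 ± 1.49 CPM in hypoxia (SD, n = 3). It fell with siARNT by 0.53 on the log2 scale in normoxia (adjusted p 0.00413, edgeR) and by 0.91 in hypoxia (adjusted p 4.5e-05, edgeR), and these changes were not shown to differ (interaction -0.38, adjusted p 0.154, edgeR). Its paralog ESRP2 stood at 7.34 ± 0.517, 6.85 ± 0.9, 7.92 ± 0.597 and 6.41 ± 0.404 CPM, with log2 fold changes for siARNT of -0.1 (adjusted p 0.545) and -0.31 (adjusted p 0.0651, edgeR). The mean variant share of CD44, given above, lay between 36.9 and 37.9% at c5 and between 39.8 and 42.4% at c16.

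Among the other regulators with siARNT in hypoxia, HNRNPA1, a general splicing repressor, had a log2 fold change of 0.16 (adjusted p 0.029, edgeR), and HNRNPA2B1 of -0.24 (adjusted p 0.0118). MBNL1, a regulator of developmental splicing, fell by 0.28 (adjusted p 0.019, edgeR) and the cold-induced RNA-binding protein RBM3 fell by 0.75 (adjusted p 5.88e-05, edgeR). With hypoxia in siControl RBFOX2, a splicing factor known from mesenchymal cells, rose by 0.3 (adjusted p 0.00185, edgeR), and SRSF10 fell by 0.31 (adjusted p 0.00918, edgeR). The call of HNRNPA1 was lost in 9 of 18 alternatives, that of MBNL1 in 3 and that of HNRNPA2B1 in 2.

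The 5 genes whose log2 CPM followed that of CD44 most closely over the 12 libraries, of 9734 with a mean of at least 5 CPM, were TFDP2 (Pearson r 0.989), PPFIBP1 (0.989), PLCL2 (0.988), RIGI (0.986) and CTNNB1 (0.98). All 12 points share the 4 groups and their library scaling, and the values are a description with no test. CTNNB1, the beta-catenin gene, rose with siARNT in hypoxia by a log2 fold change of 0.27 (adjusted p 0.00434, edgeR). The matching search over exon skips took c17 as the CD44 exon with most reads, whose PSI of 0.99 to 1 left too little variation for a likeness to be read, and no event is named.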

How the data were processed

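RNA of 12 AsPC-1 libraries was analysed from the deposited files. Gene values are counts of reads per gene ID in files named for HTSeq, as deposited; the submitters' processing notes name Trimmomatic, STAR 2.4.2a and GRCh38.p10, with no role given. The event files hold deposited junction counts, coverage (a mean signal over an exon or intron) and PSI, a fraction by its values, as the authors deposited them; the event caller and its build are not given in the sources used here. Lines that name no gene (22.71 to 25.2% of reads) were left out.

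The test on gene counts was that of edgeR 4.0.16 (R 4.3.3; TMM, filterByExpr, robust quasi-likelihood, all 12 libraries, 1 mean per group, Benjamini-Hochberg over all genes). Events needed a mean of 10 reads a library over both forms and 12 reads in the rarer form over all libraries; the inclusion count was the rounded mean of the inclusion junctions, and edgeR fitted a term per library plus group by form. Retention was tested with limma 3.58.1 on the logit of PSI held between 0.01 and 0.99. The scripts were checked on simulated data. The dispersion of the event fit was not fixed in the design: 3 settings (0, 0.01 and a trend over events) were run and CD44's results seen under each before 0 was taken, the one with the most calls over all events. Junction shares count each distinct junction once and were compared by exact permutation. CPM used TMM scaling. Intervals cover the spread between libraries, and the 38.53 to 84.34 M reads per library gave 532 to 1156 reads for the c5 to c16 join. No 2 replicates differed as little as counting error gives (chi-square over its degrees of freedom from 3.95 to 79.5), and each library was treated as 1 sample. That spread does not show that the libraries are independent. The main fits have no term for a culture divided between the oxygen levels.

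CD44, the lists and the rules were chosen with earlier results of these data known. Named are CD44 with all its events, called list members and those needed as background, and the 5 genes most correlated with CD44. Replicate letters deviated together in every pair for hypoxia in siControl (r 0.495 to 0.744) and siARNT in normoxia (0.387 to 0.88), but not for hypoxia in siARNT (-0.851 to 0.908) or siARNT in hypoxia (-0.719 to 0.677). Alternatives were other scalings, tools, filters, sample sets, replicate blocks, dispersions, DESeq2 1.42.0 and leaving out each library; those for the retained intron and list genes were added after the data were seen. Single events and junctions described were picked with their values in view.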

Additional observations from a re-analysis of the deposited data

How the results depend on the processing

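No alternative called a CD44 event other than retention: the count was 0 in each comparison run under each filter, inclusion count, test, sample set (no interaction with 6 libraries), replicate block (by well, only the hypoxia comparisons and the interaction), dispersion and left-out library, with a lowest adjusted p of 0.105 (hypoxia in siARNT with a replicate block by transfected well). The choice of dispersion, made after these outputs were seen, moved the calls over all events: 19, 0, 58, 24 and 0 at a dispersion of 0, 2, 0, 0, 7 and 0 at 0.01, and 1, 1, 0, 2 and 0 with a trend (the hypoxia comparisons first, siControl before siARNT, then siARNT at 21% and at 1% O2, then the interaction). Limma on PSI called 43, 32, 60, 134 and 32. The rise of the CD44 gene count with siARNT in hypoxia held in all 18 alternatives (0.25 to 0.41, adjusted p at most 0.0277, edgeR or DESeq2). With siARNT in normoxia it ran from 0.15 to 0.21 and passed the threshold only with total count scaling (0.21). Hypoxia in siControl turned to 0.03 without hypoxia siControl replicate B (range over left-out libraries -0.08 to 0.03). With the replicate letter as a block the gene changes were -0.04, 0.11, 0.18, 0.33 and 0.16, and no call of CD44's gene count or of its events other than retention changed.

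The retained intron counted with the inner acceptor of v7 lost its call for siARNT in hypoxia with only the 6 libraries compared (-1.26) and with the replicate letter as a block (-1.26, adjusted p 0.0969, limma), and in 10 of 12 fits without 1 library (-1.46 to -1.11). Differences of the variant share had no stable sign. Measured at c16 they were -1.18 for hypoxia in siControl, -1.63 for hypoxia in siARNT, -0.92 for siARNT in normoxia and -1.37 for siARNT in hypoxia. The differences at c5 ran over left-out libraries, in the same order, from -0.18 to 2.15, from -0.93 to 1.81, from -1.18 to 1.56 and from -1.19 to 0.81. For v10 between c5 and c16 the range over left-out libraries was -0.18 to 0.11 for hypoxia in siARNT and -0.11 to 0.11 for siARNT in normoxia, the sign turning without normoxia siARNT replicate A in both and without hypoxia siARNT replicate C in the first (0.08). For siARNT in hypoxia the change in the same event ran from -0.16 to 0.1 over left-out libraries. The cause was not tested for any of these. Depth limits the rarer joins: no library had more than 26 reads to the inner acceptor of v3 from c5, 17 to that of v7 or 9 from v6 to v8. With only the 6 libraries compared, 0 genes of either list were called for hypoxia in siARNT, and 4 regulators rose and 11 fell for hypoxia in siControl. With no low count filter 1 regulator rose and 5 fell for siARNT in hypoxia.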
